A study of Mus musculus with 18 samples.

Results

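Foxa1, Foxa2, Sox17 and Hhex are 4 mouse genes for DNA-binding proteins of the endoderm, the germ layer that lines the gut. They were followed by name through every deposited library: 4 of 22997 nuclear genes, in 972 cells that held at least 2000 nuclear transcripts out of 1728 cell barcodes in use. At least 1 transcript of a member was found in 275 of the 972 cells: Foxa2 in 193, Foxa1 in 87, Hhex in 82 and Sox17 in 71. Cells in which Ttr, Apoa1 and Spink1, 3 genes of the visceral endoderm, together reached 20 per 10000 transcripts were set apart as visceral endoderm, and the remaining cells are called embryonic. By the clusters described below, the cells called embryonic include 4 visceral endoderm-like cells at E6.75. They also include extraembryonic ectoderm-like cells, 13 at E6.75 and 6 at E7.5.

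All embryos were wild-type C57BL/6 mice, with no treatment. At E6.75 (E for embryonic day), 6 libraries of 96 hand-picked cells each came from embryos dissociated singly after the extraembryonic portion had been cut off, and at E7.5, 12 libraries of 96 cells sorted by flow cytometry came from embryos of 1 or 2 pooled litters, trimmed just below the chorion so that extraembryonic mesoderm stayed in. E6.75 libraries were made with CEL-Seq2 and E7.5 libraries with mCEL-Seq2, its robotic small-volume version; both count each messenger RNA molecule once through a unique molecular identifier (UMI). Stage, collection and protocol version changed together, so their parts in any difference between stages cannot be told apart. The labels do not say which libraries share embryos, so p-values measure only the spread between libraries. The kept cells were 543 of 576 at E6.75 (39 visceral endoderm, 504 embryonic) and 429 of 1152 at E7.5 (2 visceral endoderm, 427 embryonic), and E7.5 replicate 5 had 0 kept cells. Median depth was 41725 transcripts in E6.75 embryonic cells, 23335 in E6.75 visceral endoderm and 31173 in E7.5 embryonic cells. The 8 visceral endoderm markers that the rule did not use (Afp, Amn, Cubn, Dab2, Apob, Rbp4, Apoa4 and Apom) were all found in the 39 visceral endoderm cells, at a summed 2902 to 7113 counts per 1000000 transcripts (CPM) by library against 18.2 to 68.4 in embryonic cells.

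During gastrulation, epiblast cells pass through the primitive streak, and the anterior end of the streak gives rise to the definitive endoderm and to the node and notochord. The visceral endoderm is an older, mainly extraembryonic layer that covers the embryo and shares many regulators with the definitive endoderm. Foxa1 and Foxa2 belong to the forkhead family and are known as pioneer factors, which can bind target DNA packed in nucleosomes. Foxa2 is required for the node and notochord, Sox17, an HMG-box factor, for the definitive endoderm, and the homeobox factor Hhex is known from the anterior endoderm and from early blood and endothelium.

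The members lie on 4 chromosomes in GENCODE vM21 (build GRCm38): Foxa1 at chr12:57540628-57546916 (minus strand), Foxa2 at chr2:148042877-148046969 (minus), Sox17 at chr1:4490931-4497354 (minus) and Hhex at chr19:37434810-37440731 (plus). A noncoding transcript of the opposite strand overlaps the 5' end of Sox17, and whether counting used strand is not given in the sources used here. As 3 of the 4 genes rose together between the stages and shared cells at E7.5, the DNA upstream of their RefSeq starts is shown where the RefSeq promoter table for GRCm38.p6 held it (3 of 4 members; Sox17 was not matched). For Foxa1 GENCODE also lists a longer transcript that starts further upstream, so the window shown, which precedes the shorter transcript, lies in an intron of the longer one. The sequences below run 5' to 3' on the gene's strand and stop before the first base that is exonic in GENCODE, in lower case, with any motif match in capitals.
Foxa1, chr12:57546122-57546361, minus strand: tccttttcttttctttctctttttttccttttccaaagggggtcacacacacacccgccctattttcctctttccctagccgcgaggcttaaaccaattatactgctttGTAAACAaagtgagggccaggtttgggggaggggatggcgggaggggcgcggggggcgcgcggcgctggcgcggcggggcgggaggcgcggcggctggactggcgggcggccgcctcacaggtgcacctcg
Foxa2, chr2:148046970-148047219, minus strand: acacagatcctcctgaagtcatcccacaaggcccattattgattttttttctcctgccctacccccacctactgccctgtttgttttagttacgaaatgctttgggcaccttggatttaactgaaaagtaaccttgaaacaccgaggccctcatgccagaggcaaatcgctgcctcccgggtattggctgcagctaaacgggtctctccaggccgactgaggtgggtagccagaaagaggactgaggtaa
Hhex, chr19:37434591-37434809, plus strand: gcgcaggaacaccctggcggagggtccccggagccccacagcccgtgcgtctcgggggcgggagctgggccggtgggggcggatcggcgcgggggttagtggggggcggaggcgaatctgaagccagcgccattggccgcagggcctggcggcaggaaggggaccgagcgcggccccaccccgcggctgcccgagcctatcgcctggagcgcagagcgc

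The whole 250 bases before each RefSeq start, of which the last 10 for Foxa1 and 31 for Hhex lie in a GENCODE exon and were not printed, were searched on both strands for motif letters of 6 kinds of factor: TGTTTAC for forkhead factors, AGATAA for those of the Gata family, ATTGTT for Sox factors, AATCCACA for Foxh1, AGGTGTGA for T-box factors and CTTTGAT for Tcf and Lef factors. Foxa1 held 1 forkhead match, its reverse complement GTAAACA, beginning 141 bases before the start, and 3.17% of 32851 promoter windows of that length held this motif. The Foxa2 window shown held none of the 6, while the window of the third of 3 annotated Foxa2 starts held AGATAA 183 bases before it (9.99% of windows). Hhex held none of the 6 and stood out in composition, with 76% G and C and 32 CpG dinucleotides against a median of 6; 4.58% of windows had as many. These are matches of letters only, and no binding was measured.

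The stage comparison asked how much of each factor's RNA embryonic cells held before and after the germ layers had formed. Foxa1, Sox17 and Hhex were low at E6.75 and higher at E7.5, whereas Foxa2 was already present at E6.75 and did not pass the test. Counts were summed over the embryonic cells of each library, in CPM, and libraries were the replicates (6 against 11 with at least 10 such cells). In such sums, fewer cells of a type and less RNA per cell cannot be told apart.

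Foxa1, at E6.75, ranged from 0 to 3.05 CPM over the 6 libraries with a median of 1.41, and at E7.5 from 0 to 44.6 over 11 libraries with a median of 12.3. Of the E7.5 libraries, 8 stood above every E6.75 library, while replicates 9 and 10 were at 0, so the groups overlapped. The mean was 1.45 ± 1.21 (SD, n = 6) against 13.2 ± 13.5 (n = 11), a log2 difference of 2.85 (SE 0.56, adjusted p = 0.000339 adjusted by Benjamini-Hochberg over 14239 genes after a quasi-likelihood F test). Sox17 ranged from 0.57 to 1.60 CPM (median 1.27) at E6.75 and from 0 to 78.3 (median 6.17) at E7.5. Its highest E7.5 libraries were replicates 12 (78.3) and 7 (37.7), 9 of 11 lay above every E6.75 library, and replicate 9 was at 0. The log2 difference was 3.52 (SE 0.71, adjusted p = 0.000430).

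Hhex ranged from 0 to 1.72 CPM (median 0.48) at E6.75 and from 0 to 18.7 (median 4.05) at E7.5, where replicates 2 (18.7) and 1 (13.3) were highest, 9 of 11 lay above every E6.75 library and replicate 10 was at 0. Its log2 difference was 2.92 (SE 0.56, adjusted p = 0.000267), and 1.16 (adjusted p = 0.0582) when visceral endoderm cells were not left out. In all, 3 of the 4 members passed the test, each upward, where 36.1% of all genes tested passed and 17.8% did so upward. All 3 calls held in a stricter fit, called each gene's own spread below, that borrowed no degrees of freedom from other genes and never took a spread smaller than the gene's own (adjusted p = 0.00510, 0.00671 and 0.00348). E7.5 replicates 9 and 10, the lowest for Foxa1 and Sox17, had 15 and 23 embryonic cells and none in the clusters described below as definitive endoderm-like, node-like or blood-like.

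Foxa2 split the E6.75 libraries themselves. Replicates 1_10 and 1_11 gave 4.40 and 2.98 CPM, and replicates 2_9, 2_12, 2_13 and 2_14 gave 60.3, 30.2, 83.6 and 67.2. The E7.5 libraries spanned 1.48 to 57.4 with a median of 21.9, between those sets and overlapping both. The log2 difference between stages was -0.47 (SE 0.49, adjusted p = 0.480). It was 3.02 (adjusted p = 0.00642) against the 1_ libraries alone and -0.96 (adjusted p = 0.0491) against the 2_ libraries alone, and the labels do not say what the prefix means. The 8 primitive streak markers (T, Mixl1, Fgf8, Evx1, Nodal, Wnt3, Eomes and Sp5) were all found in E6.75 embryonic cells. Their sum was 314.4 and 279.5 CPM in 1_10 and 1_11 against 334 (2_12) to 1058 (2_13) in the others. By this sum 2_12 lay close to 1_10, whereas its Foxa2 did not. Over both clusters of that name described below, of which the second is weakly named, primitive streak-like cells numbered 0 and 1 against 8 to 34. The part of these cells in the Foxa2 difference was not tested.

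**Figure D1:**
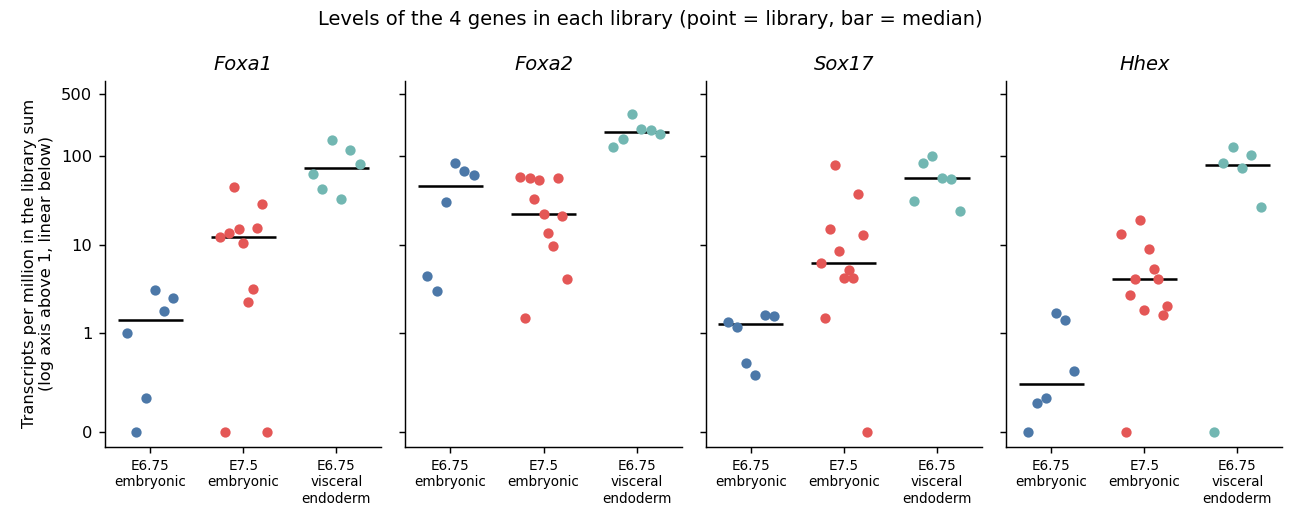
Level of each gene in each library sum, in CPM on an axis that is logarithmic above 1 and linear below, for E6.75 embryonic, E7.5 embryonic and E6.75 visceral endoderm cells; each point is a library and the bar is the median. Foxa1, Sox17 and Hhex step up from left to right, while 2 E6.75 libraries (4.40 and 2.98) fall below the other 4 for Foxa2.

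The share of cells with a transcript was compared as well. Without correction for depth, Foxa1 was found in 25 of 504 E6.75 and 42 of 427 E7.5 embryonic cells, Foxa2 in 103 and 60, Sox17 in 16 and 36, and Hhex in 16 and 43. None of the 4 shares passed an exact permutation test over libraries, two-sided, with adjustment over all genes (adjusted p = 0.501 for Foxa1, 0.584 for Foxa2, 0.372 for Sox17 and 0.254 for Hhex). In that test 989 of 15506 genes passed, 174 with a larger share at E7.5. When every cell was thinned to 2000 transcripts, Foxa2 alone was left in enough cells to be tested, at 5.93% ± 4.35 (SD, n = 6) against 5.67% ± 3.36 (n = 11), a difference of -0.26 percentage points (exact permutation adjusted p = 0.973); 2.51% of the 9748 genes tested passed, 0.769% with a larger share at E7.5. In the members' sums a few cells weighed heavily: at E7.5 the 3 richest cells held 30.9% of Foxa1, 30.4% of Foxa2, 45.1% of Sox17 and 31.5% of Hhex transcripts, and the most in 1 cell was 21, 72, 34 and 14.

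At E6.75 the 39 visceral endoderm cells held more transcripts than all 504 embryonic cells for 3 of the 4 factors: 74 against 37 of Foxa1, 45 against 26 of Sox17 and 57 against 20 of Hhex, but 186 against 1077 of Foxa2. Foxa1 ranged from 32.6 to 149.8 CPM (median 72.5) in the visceral endoderm sums of the 6 libraries, against 0 to 3.05 in the embryonic sums, and Sox17 from 24.2 to 99.9 (median 55.9) against 0.57 to 1.60. For both, every library was higher in visceral endoderm and the ranges did not overlap. Hhex ranged from 0 to 124.8 (median 78.7) against 0 to 1.72; 5 libraries were higher in visceral endoderm and replicate 1_10, with 3 such cells, was at 0 in both. Foxa2 ranged from 125.8 to 299.6 (median 185.5) against 2.98 to 83.6, higher in 6 of 6 libraries with no overlap. The share of all genes whose ranges do not overlap is not given here.

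In a fit paired by library, the log2 differences were 5.12 for Foxa1 (SE 0.38, adjusted p = 3.08e-39), 5.16 for Sox17 (SE 0.46, adjusted p = 8.16e-28), 5.89 for Hhex (SE 0.44, adjusted p = 7.00e-39) and 1.95 for Foxa2 (SE 0.22, adjusted p = 7.94e-17). All 4 members passed upward, where 33.6% of 12069 genes passed, 13.1% upward and 20.4% downward. With each gene's own spread, 6.26% of genes passed (3.88% upward and 2.39% downward); Foxa1, Sox17 and Hhex did (adjusted p = 0.0261, 0.0110 and 0.0158) and Foxa2 did not (adjusted p = 0.124). The visceral endoderm sums were small, 3 to 16 cells and 40054 to 413923 transcripts a library. Among single cells of the visceral endoderm, Foxa2 was found in 29 of 39, Hhex in 21, Foxa1 in 19 and Sox17 in 17; 7 cells held all 4 and 4 held none.

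Of the other 30 genes of the endoderm programme, listed with earlier results known, 28 could be tested and 17 were higher and 3 lower in visceral endoderm, with a median log2 difference of 1.70 against -0.23 over all genes. The anterior visceral endoderm antagonists Cer1 (6.96) and Dkk1 (4.33), which block Nodal, BMP or Wnt signals, the liver-type factor Hnf4a (6.29) and the third family member Foxa3 (3.53) were among the higher genes. The Nodal co-receptor Tdgf1 (-3.81), Trh (-2.31) and Rab25 (-1.78) were lower. The list of 11 definitive endoderm markers used below was high here too. Of the 10 tested, 8 were higher and 2 lower in visceral endoderm. Their sum was 3254 to 5604 CPM by library, against 1076 to 1330 in embryonic cells. A high level of this list therefore does not tell the 2 endoderms apart. By the naming rule, the lipid and transport genes Afp (7.87), Apob (7.67) and Cubn (7.43), the protease gene Prss12 (8.21) and the hexokinase-domain gene Hkdc1 (7.81) rose most, and T (-4.97) and the epiblast factor Foxd3 (-3.79) were among the 5 that fell most.

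In E6.75 embryonic cells the members were scarcer and Foxa2 stood apart: 1077 transcripts, against 37 of Foxa1, 26 of Sox17 and 20 of Hhex. Foxa2 was uneven across cells, with 29 cells at 10 transcripts or more and up to 84 in 1 cell, while the other 3 reached 3, 5 and 4. Cells were clustered within each stage without using the 4 members, and clusters were named from marker lists by a rule set after the clusters had been seen. Of the 29 cells with at least 10 Foxa2 transcripts, 20 fell in the 2 primitive streak-like clusters, 3 in epiblast-like and 6 in unnamed clusters. Of the 42 cells of the visceral endoderm-like cluster, 4 counted as embryonic by the rule. No other E6.75 cluster had a cell with more than 2 Hhex transcripts, so the embryonic cell with 4 Hhex transcripts was among these. The primitive streak-like cluster led by Mesp1, Mixl1 and T held Foxa2 at 1.96 per 10000 (565 transcripts, 29 of 48 cells, 3 of its 4 libraries), close to the 1.82 of the visceral endoderm-like cluster, but Foxa1, Sox17 and Hhex at 0.056, 0.028 and 0.024 against 0.688, 0.428 and 0.577. The second, led by Nefl, Nanog, Wnt8a and Fgf8, held Foxa2 at 1.06 per 10000 in 16 of 36 cells. Its name is weak: the streak markers averaged a log2 difference of 0.109 from all other cells, against 2.80 in the first cluster. Per 10000, T was at 0.346 against 5.26, Mixl1 at 0.126 against 4.37 and Eomes at 6.17 against 10.4.

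Embryonic cells of E6.75 with at least 1 Foxa2 transcript (103) were then set against those with none (401) in each of the 6 libraries. Of the 103 cells, 41 held 1 Foxa2 transcript. Median depth was 54617 transcripts in cells with Foxa2 and 38736 in cells without, and the part of depth was not tested. Foxa1 was at 0 to 8.79 CPM (median 4.16) with Foxa2 and 0 to 1.94 (median 0.27) without, higher in 5 of 6 libraries, with overlapping ranges. Its log2 difference of 2.32 (SE 0.60) did not pass (adjusted p = 0.0651), nor did Sox17 (2.00, SE 0.66, adjusted p = 0.273) or Hhex (1.79, SE 0.71, adjusted p = 0.479), where 0.563% of 12798 genes passed, 0.359% upward and 0.203% downward. Foxa1 passed without replicate 2_9 (2.87, adjusted p = 0.0276). Visceral endoderm markers had a higher median with Foxa2 here, with overlapping ranges, and 11 of 11 were found in both arms. Their sum was 7.19 to 179.6 CPM (median 108.1) with Foxa2 against 24.9 to 107.0 (median 51.6) without. Without Ttr, Apoa1 and Spink1, which set the visceral endoderm rule, the medians were 61.96 with Foxa2 and 36.88 without. All 3 members passed once the threshold for visceral endoderm was raised to 40 per 10000, which leaves more such cells in. The part of visceral endoderm cells and markers in the result was not tested.

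Of the endoderm programme, 6 of 27 genes were higher with Foxa2 at E6.75 and 0 lower; the median log2 difference was 0.11 against -0.03 over all genes. These were the streak factors Eomes (0.84) and Mixl1 (1.13), the organizer factor Gsc (2.01), Cer1 (3.20), Tdgf1 (0.47) and Hnf4a (2.94). Among primitive streak markers 6 of 8 passed upward, and the signal gene Fgf8 (1.07) and the Wnt-pathway gene Dact1 (0.91) led the genes named by rule, with Sgk1 (0.65), Cxx1a (0.62) and Zfp428 (0.57). Slc35d3 (-1.01), Syt11 (-0.71), Pml (-0.62), Gm43041 (-0.60) and Mt2 (-0.58) fell. With each gene's own spread, 0 genes passed by the same quasi-likelihood test (270 at an unadjusted p under 0.05), and without replicate 2_14 the count was 43 in place of 72.

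At E7.5 the members met in few cells. Most transcripts came from 3 clusters that held 44 of 429 cells (10.3%): 87.9% of Foxa1, 88.1% of Foxa2, 84.2% of Sox17 and 72.6% of Hhex. Median depth was 37167 transcripts in those clusters and 30407 in the others. Outside them, Foxa1 was found in 20 of 385 cells, Foxa2 in 34, Sox17 in 24 and Hhex in 15, with at most 2, 10, 3 and 11 transcripts in a cell. Each of the 3 clusters held another combination of the members. As cells, not libraries, were clustered, the values that follow are descriptions.

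The definitive endoderm-like cluster (15 cells from 9 libraries, led by Spink1, Cer1, Cpm and Slc16a1) held all 4: Foxa2 at 3.22, Sox17 at 2.43, Foxa1 at 1.74 and Hhex at 0.329 per 10000. Foxa1 and Foxa2 were found in 14 of 15 cells, Sox17 in 13 and Hhex in 12; 10 cells held all 4 and 3 held 3 of them. Cer1 was found in 15 of 15 cells at 5.08 per 10000. Its leading gene Spink1 (3.26) is also a visceral endoderm marker, while Ttr (0.39) and Apoa1 (0.57) were low, and 2 of the 15 cells had been set apart as visceral endoderm. In single cells Sox17 ran from 0 to 5.62 per 10000 with a median of 2.10, and Foxa2 from 0 to 5.40 with a median of 2.89. All 9 cells with at least 5 Sox17 transcripts that counted as embryonic were in this cluster, as were 10 of the 11 with at least 5 of Foxa1.

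The node-like cluster (13 cells from 5 libraries, led by Foxj1, the master gene of motile cilia, with Tppp3, Cfap126 and Chrd, and with Noto in 10 of 13 cells) held the most Foxa2, 6.47 per 10000 in 12 of 13 cells, with single cells from 0 to 13.999 and a median of 4.62. Foxa1 was found in 8 cells (1.07 per 10000) and Hhex in 4 (0.144). No Sox17 transcript was found among its 346219 transcripts, which allows a level of up to 0.087 per 10000 and a share of up to 23.1% of cells with a detected transcript, which is no limit on cells that express the gene; both limits cover counting error only. The same limit lies below the 2.43 per 10000 of the definitive endoderm-like cluster. Replicates 1 and 2 gave 4 and 5 of the 13 cells, and median depth was 25560 transcripts against 42651 in the endoderm-like cluster.

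The blood-like cluster (16 cells from 7 libraries, led by Tal1, Hbb-bh1, Gata2 and Runx1, genes of primitive blood) held Hhex alone: 54 transcripts, 0.896 per 10000, in 14 of 16 cells, with a median of 0.66 and up to 3.10 in a cell. Foxa1, Foxa2 and Sox17 each gave 1 transcript (0.017 per 10000). Hhex was the only member detected in 12 of these cells. The level of Hhex per 10000 was thus higher here than in the endoderm-like cluster, 0.896 against 0.329, with no test. Replicate 2 gave 8 of the 16 cells, which also had the highest Hhex sum. Outside the 3 clusters, the paraxial mesoderm-like cluster 0 gave 16 Hhex transcripts (0.082 per 10000), 11 of them in 1 cell.

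**Figure D2:**
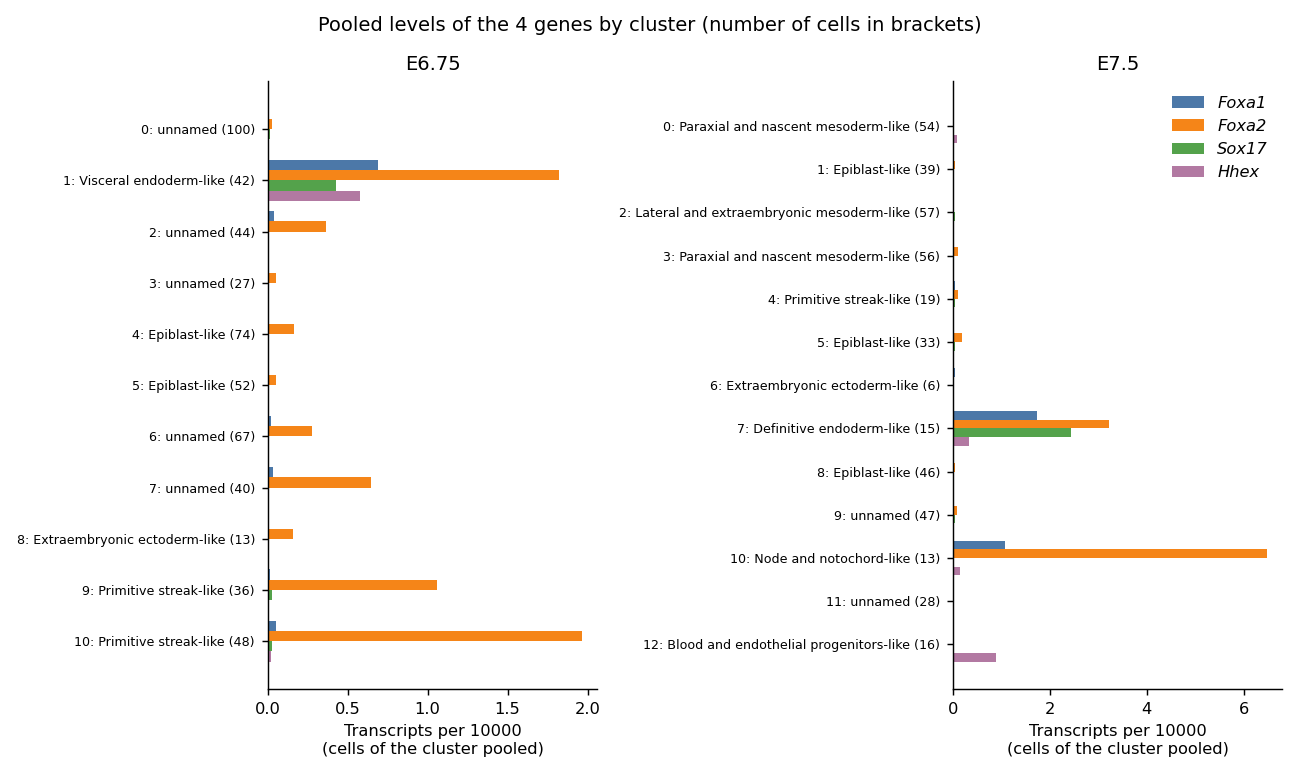
Pooled level of each gene in each cluster, in transcripts per 10000, at E6.75 (left) and E7.5 (right), with the number of cells in brackets; the 2 axes differ in scale. At E7.5 Sox17 stands only in the definitive endoderm-like bar group (2.43), Foxa2 is highest in the node-like one (6.47), and Hhex is the 1 visible bar of the blood-like one (0.896).

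**Figure D3:**
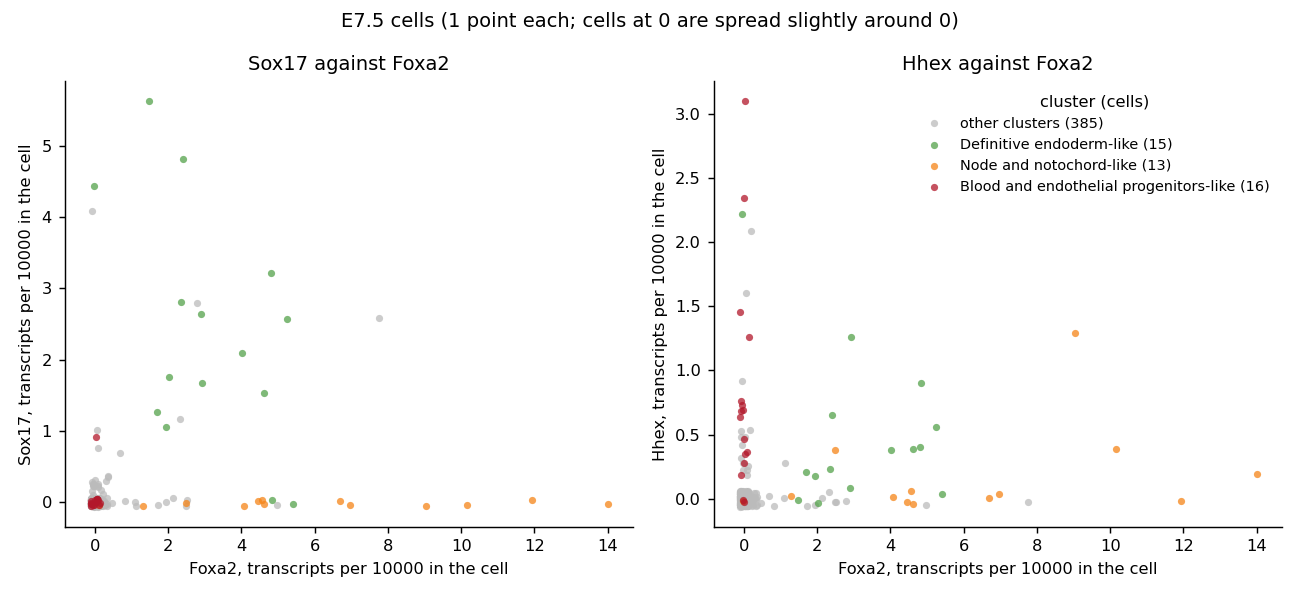
Sox17 (left) and Hhex (right) against Foxa2 in each of 429 E7.5 cells, in transcripts per 10000 of the cell; colours mark the 3 clusters and grey the other 385 cells. Node-like cells all have Sox17 at 0, 12 of 15 endoderm-like cells hold both Foxa2 and Sox17, and 14 of 16 blood-like cells hold Hhex while 1 holds Foxa2.

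The combinations were also counted without clusters. Among 427 embryonic cells at E7.5, 313 held no member, 9 held all 4 (from 8 libraries), 24 held Foxa2 only, 23 Hhex only, 14 Foxa1 only and 12 Sox17 only. The 20 cells with both Foxa2 and Sox17 came from 9 libraries and had a median of 48.4 per 10000 for 11 definitive endoderm markers and 0.62 for 7 node markers. The 40 cells with Foxa2 but no Sox17 had 12.4 and 0.99, and 16.04 for the streak markers against 1.77. Cells with none of the members had 9.50 for definitive endoderm. The 20 cells with both Foxa2 and Sox17 were not alike. The 7 with neither Foxa1 nor Hhex had 11.6 for definitive endoderm. The 4 with Foxa1 but no Hhex had 39.2, and the 9 with all 4 members 60.4. Of the 20, 11 lay in the definitive endoderm-like cluster. The others lay in epiblast-like (4), paraxial mesoderm-like (3), primitive streak-like (1) and unnamed (1) clusters.

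Hhex cells split as well. The 19 with Foxa2 or Sox17 had a median of 44.7 per 10000 for definitive endoderm markers and 0.34 for 15 blood and endothelial markers, and the 24 without either had 3.55 and 12.7. Of those 24, 13 lay in the blood-like cluster and none in the endoderm-like or node-like ones. The 16 cells with Sox17 but no Foxa2 had 10.7 for definitive endoderm, near the 9.50 of cells with no member, and 12 of the 36 Sox17 cells held no other member.

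Every pair of members was found together more often than the product of their shares within each library. At E7.5, Foxa1 and Foxa2 shared 24 cells against 7.65 by that product, Foxa2 and Sox17 20 against 6.51, Foxa2 and Hhex 18 against 7.09, Foxa1 and Sox17 16 against 5.56, Foxa1 and Hhex 14 against 4.37, and Sox17 and Hhex 10 against 3.68. The ratios were 2.54 to 3.20. In E6.75 embryonic cells 5 pairs shared 2 to 9 cells and Foxa1 and Foxa2 shared 17 against 8.24. Cells with a member were deeper than cells without (medians of 45728 against 29215 for Foxa1 and 39644 against 29943 for Sox17 at E7.5), and the part of depth in these counts was not tested. In the visceral endoderm, where each member was common, the ratios were 1.02 to 1.27.

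**Figure D4:**
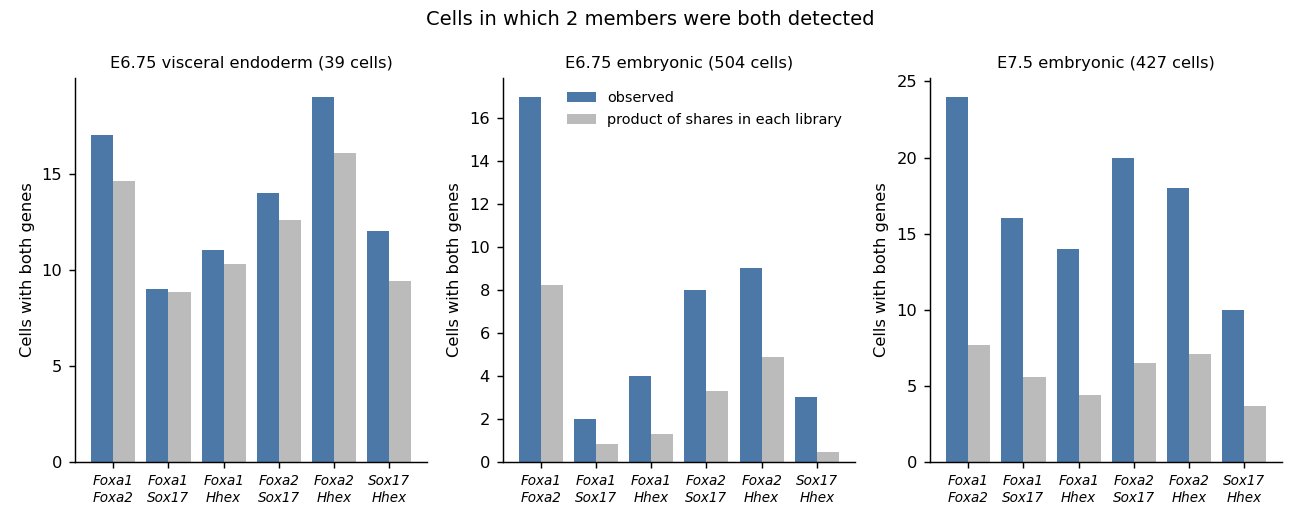
Number of cells in which both genes of a pair were detected (blue) beside the number that the product of their shares in each library gives (grey), in E6.75 visceral endoderm, E6.75 embryonic and E7.5 embryonic cells. At E7.5 the blue bar of every pair is above the grey one, by 2.54 to 3.20 times.

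The sharing was then measured by library. E7.5 embryonic cells with Foxa2 (58 cells) were compared with cells without it (331) in the 9 libraries that had at least 3 cells of each kind. Foxa1 was at 40.8 to 156.3 CPM (median 62.6) with Foxa2 and at 0 to 8.01 (median 1.47) without. Sox17 was at 18.8 to 232.4 (median 63.7) with and 0 to 5.70 (median 1.93) without. For both genes the 2 kinds of cell did not overlap, and every library had more in the cells with Foxa2. The share of all genes of which this is true is not given here. Hhex was at 5.39 to 44.8 (median 16.8) with and 0 to 17.2 (median 1.29) without, higher in 9 of 9 libraries but with overlapping ranges, since replicate 2 had 17.2 in its cells without Foxa2.

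The log2 differences were 5.08 for Foxa1 (SE 0.33, adjusted p = 2.76e-18), 4.70 for Sox17 (SE 0.32, adjusted p = 2.55e-17) and 1.99 for Hhex (SE 0.41, adjusted p = 0.000709), and all 3 passed upward where 4.9% of 12378 genes passed, 2.63% upward and 2.26% downward. With each gene's own spread, 4 genes passed (0.0323%): Foxa1 and Sox17 (both adjusted p = 0.00535), Foxj1 and Samd3. Hhex then did not (adjusted p = 0.337), nor with a gate of 2 Foxa2 transcripts (adjusted p = 0.0645) or without the library block (adjusted p = 0.0577). The gate of 2 transcripts left 5 libraries in place of 9. The 11 visceral endoderm markers summed to 11.2 to 176.8 CPM (median 38.4) with Foxa2 and 22.8 to 86.1 (median 30.4) without, with Apob and Apoa4 at 0 in the first and Afp and Apoa4 in the second. Without Ttr, Apoa1 and Spink1 the medians were 10.8 with Foxa2 and 29.2 without; their part was not tested.

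Foxa2 cells carried 2 sets of partners at E7.5. Of the endoderm programme, 14 of 26 genes were higher and 1 lower, with a median log2 difference of 0.80 against -0.08 over all genes; the membrane protease gene Tmprss2 (3.98), Cer1 (3.91), Nodal (2.34), Cldn6 (1.75) and Krt8 (1.44) were higher and Gata4 (-1.20) lower. All 5 node markers tested were higher: Noto (6.39), Foxj1 (5.46), the BMP antagonists Chrd (4.48) and Nog (2.88), and Foxd4 (3.10). Shh and Pkd1l1 were not tested. A scarce marker can reach the count filter through the Foxa2 cells alone, so this count can partly be set by the filter. Of the lateral and extraembryonic mesoderm markers 8 of 9 were lower, among them Hand1 (-2.03), Hand2 (-2.56) and Bmp4 (-2.10). By the naming rule Samd3 (4.83), Cer1, Foxd4, Capsl (2.59) and the lactate transporter gene Slc16a1 (2.06) rose most and Pmp22 (-2.63), H19 (-1.99), Phlda2 (-1.83), Igf2 (-1.79) and Pcgf5 (-1.58) fell most. H19, Igf2 and Phlda2 are imprinted genes of fetal growth. Except for Foxj1 and Samd3, these calls were lost with each gene's own spread.

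The Sox17 comparison had 32 cells against 275 in 7 libraries. Foxa1 was at 16.6 to 140.7 CPM (median 37.0) with Sox17 and 1.13 to 12.1 (median 4.35) without, and Foxa2 at 74.3 to 140.0 (median 99.8) with and 2.173 to 54.9 (median 7.79) without; neither overlapped and both were higher in 7 of 7 libraries. The share of all genes with no such overlap is not given here. Hhex was at 0 to 52.5 (median 9.22) with and 0 to 19.8 (median 5.63) without, higher in 5 of 7. The log2 differences were 3.39 for Foxa1 (SE 0.35, adjusted p = 1.58e-13), 2.34 for Foxa2 (SE 0.27, adjusted p = 5.09e-11) and 0.91 for Hhex (SE 0.57, adjusted p = 0.688; 0.57 to 1.76 with a library left out), where 1.04% of 11894 genes passed, 0.589% upward and 0.454% downward. With each gene's own spread 0 genes passed (372 at an unadjusted p under 0.05; unadjusted p = 0.000451 for Foxa1 and 0.00730 for Foxa2).

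Sox17 cells had 8 of 25 programme genes higher and 0 lower: Cer1 (3.46), Tmprss2 (2.56), Dkk1 (2.33), Trh (2.09), Cldn6 (1.60), Krt18 (1.35), Krt8 (1.32) and Emb (1.32). The median was 0.44 against -0.09 over all genes. Of 4 node markers tested 1 passed, Foxd4 (1.93), and Noto and Shh were at 0 in the Sox17 cells. Spink1 (3.76), Rabgap1l (3.22), the epithelial factor Elf3 (2.73) and Slc16a1 (2.21), with Cer1, rose most by the naming rule; Dancr (-1.51), the mesenchymal factor Twist1 (-1.49), St3gal5 (-1.41), Ppic (-1.19) and the cadherin gene Cdh11 (-1.05) fell most. Visceral endoderm markers summed to 36.9 to 145.6 CPM (median 80.5) with Sox17 and 21.0 to 86.1 (median 28.0) without, 9 and 8 of 11 above 0. Without Ttr, Apoa1 and Spink1 the medians were 18.6 and 25.5; their part was not tested.

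The Hhex comparison had 39 cells against 284 in 6 libraries. Foxa2 was at 29.2 to 365.5 CPM (median 114.9) with Hhex and 6.22 to 41.5 (median 10.1) without, higher in 6 of 6. Foxa1 was at 0 to 102.2 (median 42.4) with and 1.24 to 9.90 (median 3.90) without, and Sox17 at 0 to 243.7 (median 28.7) with and 1.24 to 6.78 (median 3.59) without, each higher in 5 of 6. Replicate 6 was the exception, with both at 0 in its 4 Hhex cells, and all 3 ranges overlapped. The log2 differences were 3.15 for Foxa2 (SE 0.31, adjusted p = 3.90e-10), 3.30 for Foxa1 (SE 0.42, adjusted p = 2.37e-07) and 3.73 for Sox17 (SE 0.43, adjusted p = 1.87e-08), where 3.65% of 11934 genes passed and 1.9% upward.

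With a gate of 2 Hhex transcripts, Foxa1 gave 1.398 (adjusted p = 0.824) and Foxa2 1.68 (adjusted p = 0.0602). That gate left 3 libraries in place of 6. With each gene's own spread 0 genes passed (591 at an unadjusted p under 0.05). Hhex cells had 9 of 25 programme genes higher, among them Sox7 (4.40), Cer1 (4.10), Tmprss2 (2.11) and Lhx1 (1.92), with a median of 0.82 against -0.09 over all genes. In the same cells 9 of 10 blood and endothelial markers tested were higher: Tal1 (6.27), Hbb-bh1 (5.71), Fli1 (4.65), Tek (4.45), Gata1 (4.29), Runx1 (3.79), Lmo2 (2.89), Etv2 (2.44) and Kdr (2.34). Cdh5, Pecam1, Itga2b, Tie1 and Esam were not tested. A scarce marker can reach the count filter through the Hhex cells alone, so this count can partly be set by the filter. Of the epiblast markers 6 of 8 fell, among them Pou3f1 (-3.92), Utf1 (-2.67) and Pou5f1 (-1.67). Without replicate 2 the count was 200 genes in place of 436.

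**Figure D5:**
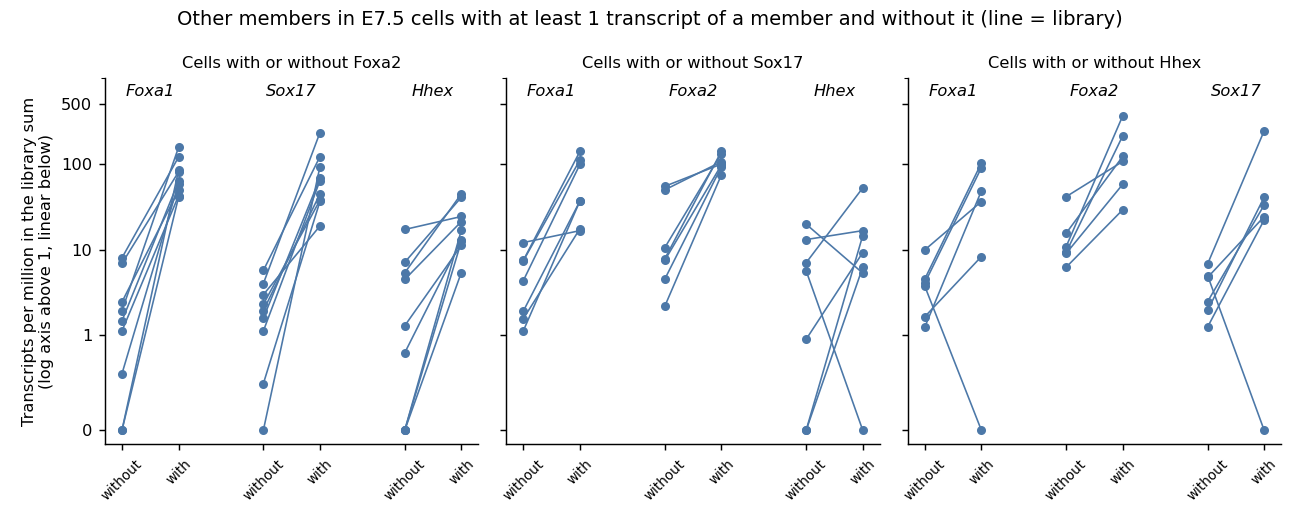
Levels of the other members, in CPM of the library sum (log axis above 1, linear below), in E7.5 embryonic cells without and with at least 1 transcript of Foxa2, Sox17 or Hhex; each line joins the 2 sums of a library. Foxa1 is higher in every line of the Foxa2 and Sox17 panels, and 1 library is at 0 with Hhex for Foxa1 and Sox17 in the Hhex panel.

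Whether Foxa2 cells differed from their neighbours more at E7.5 than at E6.75 was tested as an interaction over 15 libraries. The difference grew by 2.87 on the log2 scale for Foxa1 (SE 0.87) and 2.83 for Sox17 (SE 0.85), but neither passed (adjusted p = 0.116 and 0.109), and Hhex gave 0.24 (adjusted p = 0.994). Of all 14145 genes, 0.841% passed. Among the programme genes 9 of 29 did, each upward: Tmprss2 (3.76), Nodal (2.165), Cldn6 (1.98), Krt18 (1.61), Trh (1.37), Emb (1.29), Cdh1 (1.07), Cldn7 (1.06) and Epcam (0.91). The last 3 and Cldn6 encode parts of epithelial junctions or adhesion molecules. None of the 9 passed with each gene's own spread (adjusted p of 0.639 for Nodal; 809 of all genes at an unadjusted p under 0.05).

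The genes most like each member were ranked by Pearson r across the kept cells of a stage, on ln(1 + transcripts per 10000). These are descriptions over cells that share libraries and depth. At E6.75 (543 cells), Foxa1 was closest to Flrt3 (0.59), Afp (0.58), Cd59a, Foxq1 and Folr1; Sox17 to Myo6 (0.55), Ctsh, Dgkk, Dab2 and Nostrin; and Hhex to Cer1 (0.63), Prss12, Ctsh, Bmp2 and Foxq1. Afp, Dab2 and Prss12 are genes that were high in the visceral endoderm. Foxa2 was closest to Gsc (0.50), Tgfbr3, Arhgef26, Pkdcc and Lzts1, and to none of the visceral endoderm list.

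At E7.5 (429 cells), 2 members headed the list of Foxa1, Foxa2 (0.66) and Sox17 (0.58), before Cer1, Dgkk and Samd3. Foxa2 was closest to Samd3 (0.75), Foxa1, Chrd (0.62), Foxj1 (0.62) and 2410004P03Rik, and Sox17 to Chst15 (0.61), Foxa1, Cer1 (0.56), Eda and Slc16a1. Foxa2 and Sox17 correlated at 0.43. Hhex was closest to the blood factor Tal1 (0.52), then Ppp1r16b, Vat1, Bmp2 and the endothelial receptor gene Tek (0.44), and to the other members at 0.18 to 0.24.

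Across the stages, the endoderm programme did not move one way in embryonic cells: 8 of 29 genes were higher at E7.5 and 12 lower, with a median log2 difference of -0.12 against 0.03 over all genes. Cer1 (5.31), Sox7 (3.78), Dkk1 (2.87), Krt8 (2.22) and Gata6 (1.75) rose with Foxa1, Sox17 and Hhex, and Lefty1 (-3.45), Hnf4a (-2.98), Gsc (-2.24), Nodal (-2.172), Tdgf1 (-1.56) and Eomes (-1.18) fell. The largest rises by the naming rule were of Aldh1a2 (8.03), Foxc2 (6.92), Hoxb1 (6.80), Nkx1-2 (6.00) and Pcdh19 (5.76) and Cyct (-3.88), Dppa4 (-3.78), Zfp36 (-3.50), Dppa5a (-3.31) and Pmepa1 (-3.14) fell most. Over all genes 2534 were higher and 2601 lower; scaled by library totals alone the split was 3392 and 1827.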

How the data were processed

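The deposited tables hold 1 value per gene and cell barcode. They are UMI counts that the authors had corrected for collisions: every value is the logarithmic collision correction of a whole number of UMIs out of 4096 possible UMIs, so the deposited values are estimated counts, not normalized for depth, and were rounded before use. A gene absent from a table was taken as 0. Per the submitters' processing notes, bcl2fastq 2.17.1.14 and BWA 0.6.2-r126 were used, with roles not given; genome build, annotation and strand setting are not given in the sources used here. Each table has 192 columns, of which 96 hold the library's cells (96.6% to 99.96% of transcripts). Libraries share barcodes by design.

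Cells with at least 2000 nuclear transcripts were kept and no doublet caller was run. Transcripts were summed per library and tested with a negative binomial log-linear quasi-likelihood F test (TMM scaling, at least 20 transcripts over the sums, prior count 0.125, library as block except between stages), written for this work in place of the packaged test first planned; quasi-dispersions were moderated with limma 3.58.1 in R 4.3.3, and p-values adjusted by Benjamini-Hochberg over all genes, with calls at an adjusted p under 0.05. A stricter fit, each gene's own spread, took the larger of its own and the moderated quasi-dispersion with no borrowed degrees of freedom; it leaves fold changes as they are. The test was checked on simulated data with the same dispersion for every gene, so the check does not cover spreads that differ between genes. Each SE was obtained as the absolute log2 difference divided by the square root of F, so it carries no meaning where F is very small. Comparisons of cells with and without a member needed at least 3 cells of each kind in a library. Shares of cells were compared by exact two-sided permutation over libraries (12376 arrangements, smallest p = 8.1e-05). Clusters came from 2000 variable genes without the members, 30 components, 15 neighbours and Leiden resolution 1 (scanpy 1.11.5). Genes named besides the members are the 5 largest rises and falls among called genes with a mean of at least 20 CPM and, in blocked fits, 1 sign in every library, with a 30-gene endoderm programme list and the 5 genes most correlated with each member. Members and lists were chosen with earlier results of these data known. Alternatives were other cell, gene and threshold settings and each library left out; the stricter fit, Poisson variance and scaling by library totals were added after seeing the data. No 2 libraries of a stage agreed within sampling noise (lowest chi-square per degree of freedom 2.13).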

Additional observations from a re-analysis of the deposited data

Results flagged for a closer look

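In 5 of 36 groups of libraries checked, 1 library lay far from the others by Dixon's test, where chance gives about 1 in 20 groups. The groups share libraries, so this rate is only a guide. The E7.5 groups of 11 libraries, which are the sums over all embryonic cells and the shares of cells, were not checked. Among E7.5 cells with Foxa2, Sox17 was at 232 CPM in replicate 12, and among cells without Foxa2, Hhex was at 17.2 in replicate 2. Among cells with Sox17, Hhex was at 52.5 in replicate 4. Among cells with Hhex, Sox17 was at 244 in replicate 7, and among cells without Hhex, Foxa2 was at 41.5 in replicate 2.

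The log2 difference between cells with and without Foxa2 passed as larger at E7.5 than at E6.75 for 93 of 14145 genes (0.657%). Only the programme genes and those named by rule were looked at here, and 10 of them were among the 93: Tmprss2 by 3.76, Nodal by 2.165, Cldn6 by 1.98, Krt18 by 1.61, Ap1s3 by 1.52, Trh by 1.37, Emb by 1.29, Cdh1 by 1.07, Cldn7 by 1.06 and Epcam by 0.91. With each gene's own spread none of the 10 passed, with an adjusted p of 0.127 (Cldn6, Cdh1, Emb and Ap1s3) to 0.807 (Trh and Krt18).

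Member transcripts also appeared in data that no comparison used. In the columns outside the 96 in use, Foxa2 had 8 transcripts at E6.75 and 8 at E7.5, and Foxa1 had 5 at E7.5. In E7.5 cells under 2000 transcripts, Foxa1 had 11, Foxa2 10 and Sox17 7.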

How the results depend on the processing

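The planned DESeq2 alternatives were not run, nor could a gate of 2 Sox17 transcripts or thinned Sox17 and Hhex gates be fitted. At E7.5 a gate of 2 transcripts left 5 of 9 libraries for Foxa2 and 3 of 6 for Hhex. Among the members' log2 differences, 369 alternative values kept their direction and side of the threshold, 11 gained a call, 12 lost one and 3 reversed, and the Foxa2 difference in share of cells turned sign in 7 of 23; the cause was not tested. In the E6.75 Foxa2 comparison the count of 72 became 138 with no filter, 205 at a visceral endoderm threshold of 40, 583 with visceral endoderm not left out, 129 with Poisson variance, 2 without the library block, 4 thinned, 0 with each gene's own spread and 43 to 84 with a library left out. Foxa1 there was called at 2.31 (no filter, and Poisson), 2.46 (at least 4000 transcripts), 3.30 (threshold 40) and 3.82 (visceral endoderm in), Sox17 at 2.85 and 3.21 and Hhex at 4.04 and 3.95 under the last pair; left-out libraries gave 1.96 to 2.87, 1.75 to 2.19 and 1.82. In the stage comparison 971 genes passed when thinned, Foxa2 gave 0.21 thinned, 3.02 with prefix 1 alone and -0.96 with prefix 2 alone, and Hhex gave 1.16 with visceral endoderm in; left-out libraries gave 4594 to 5114 genes. For visceral endoderm, 2277 genes passed at threshold 40 and 756 with own spread, where Foxa2 (1.95) lost its call. At E7.5 the Foxa2 count was 195 without block, 9 thinned, 4 with own spread and 423 to 602 with a library left out; Hhex lost its call without block (1.91), at 2 transcripts (1.66) and with own spread (1.99), with left-out libraries at 1.66 to 3.02. The Sox17 count was 33 without block, 0 with own spread, where Foxa1 (3.39) and Foxa2 (2.34) lost their calls, and 99 to 156 with a library left out, and its Hhex 0.57 to 1.76. The Hhex count was 225 without block, 155 at 2 transcripts, 0 with own spread and 200 to 481 with a library left out; Foxa1 (1.398) and Foxa2 (1.68) lost their calls at 2 transcripts, and with own spread Foxa1 (3.30), Foxa2 (3.15) and Sox17 (3.73) did. The interaction gave 0 genes with own spread, and Hhex was -1.94 at threshold 40. For shares of cells, 989 genes passed unthinned, 123 at 1000 transcripts, 391 at 4000, 0 with prefix 2 alone and 100 (without E6.75 replicate 1_10) to 270 with a library left out; Foxa2 was 0.094 points at a threshold of 10 and -1.20 to 0.63 with a library left out. Signs turned for Gsc between stages (0.016, prefix 1), Tmprss2 (-0.34, visceral endoderm in), Cxx1a (-0.66, thinned), Mt2 (0.039 at 40, 0.42 with visceral endoderm in, 0.12 thinned), Krt18 at E7.5 (-0.27, thinned) and, at 2 Hhex transcripts, Foxj1 (-0.025), Sall3 (0.034) and Tmprss2 (-1.49). No paired analysis was possible because replicate numbers are not shared between the stages.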

Other observations

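Among E7.5 embryonic cells with Foxa2 and Foxa1 but no Sox17, the 7 cells without Hhex had medians of 8.06 per 10000 for the node markers and 42.1 for the primitive streak markers. The 4 cells that also held Hhex had 14.6 and 33.5. The 9 cells with all 4 members had 1.06 and 1.21, and 60.4 for the definitive endoderm markers. The 4 cells with Foxa1, Foxa2 and Sox17 but no Hhex had 39.2 for definitive endoderm and 0.67 for node markers. Definitive endoderm markers were also high in the 7 visceral endoderm cells of E6.75 with all 4 members, at a median of 50.7.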
